A study of Mus musculus with 22 samples.

Results

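Islets of mice heterozygous for the S64F allele of MAFA (Het) were compared between 2 genetic backgrounds. The comparison held 12 of the series' 22 libraries, 6 from Mixed Het and 6 from C57 Het mice, taken by their labels. All mice were male, and their islets were taken at 5.5 weeks (5 to 6 weeks in the column names). Each library came from the islets of 1 mouse. The wild-type (WT) islets of 5 Mixed and 5 C57 mice served as a second pair of groups of the same age and sex, without the allele. Which strains the label Mixed covers is not given, so the word stands here for the label alone. Values are TPM, a transcript abundance scaled to the same total in every library, and sequencing depth cannot be read from them. Libraries were numbered group by group, so that library order and background cannot be told apart.

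MAFA is a basic leucine zipper transcription factor of mature beta cells, the insulin-producing cells of the islet. It binds the insulin promoter and those of genes for glucose uptake, metabolism and granule exocytosis. Serine 64 lies in the part of the protein whose phosphorylation sets its stability, and in people the S64F change is known from families with diabetes or with insulin-producing tumours. Islets also hold alpha cells (glucagon), delta cells (somatostatin), endothelium, resident macrophages and a little connective tissue, and RNA of a whole islet preparation is the sum over all of them.

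Each Het group resembled itself more than the other. Pearson correlations of log2(TPM + 1) across genes, which are not independent replicates, ran from 0.977 to 0.990 for the 15 pairs of C57 Het mice and from 0.967 to 0.982 for the 15 pairs of Mixed Het mice. The 36 pairs across backgrounds lay between 0.946 and 0.971, and 0 pairs of columns were identical. The first principal component of the 12 libraries held 39.9% of the variance, with C57 Het at -29.4 to -21.2 and Mixed Het at 13.8 to 38.7. Islet identity showed in insulin, glucagon and somatostatin mRNA of every library, and the X inactivation transcript Xist stayed at or below 0.0668 TPM.

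Of 16756 genes tested, 3428 (20.5%) differed between Mixed Het and C57 Het islets at an adjusted p under 0.05 in limma, a linear model fitted to all genes and all 4 groups. In Mixed Het, 2234 genes (13.3%) were higher and 1194 (7.13%) lower. That split moved with the scaling: median-of-ratios scaling gave 2101 higher and 1868 lower, quantile normalization 1882 and 2041, and a total that left out the 13 most abundant genes (each over 1% of TPM in some library) 1815 and 1992. The median difference over all genes was 0.02 as deposited and between -0.03 and 0.00 under those 3 scalings. A difference of at least 1 on the log2(TPM + 1) scale was reached by 399 genes (2.38%), 294 higher (1.75%) and 105 lower (0.627%). Values of the 2 Het groups did not overlap in 1650 genes (9.85%), with Mixed Het above C57 Het in 6.56% and below it in 3.28% of all genes.

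The WT mice, which share no sample with the Het mice, gave 1892 calls (11.3%) for Mixed against C57, 6.3% of genes higher and 4.99% lower. Of the 3428 Het calls, 607 were also called in WT in the same direction, 17.7% of the Het calls and 32.1% of the WT calls, and 56 were called in the opposite direction. The difference between the backgrounds itself differed between Het and WT (the interaction) in 1233 genes (7.36%), upward in 4.62% and downward in 2.74%. Among the Het calls, 780 passed that interaction test, 528 of them higher and 252 lower in Mixed Het. In 721 of the 780 the background difference was larger in Het than in WT. Choosing genes by a Het call and the interaction favours such genes, so this count largely follows from the choice. In the plot of both background differences, the 780 genes stand off the diagonal, which passing the interaction requires.

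**Figure D1:**
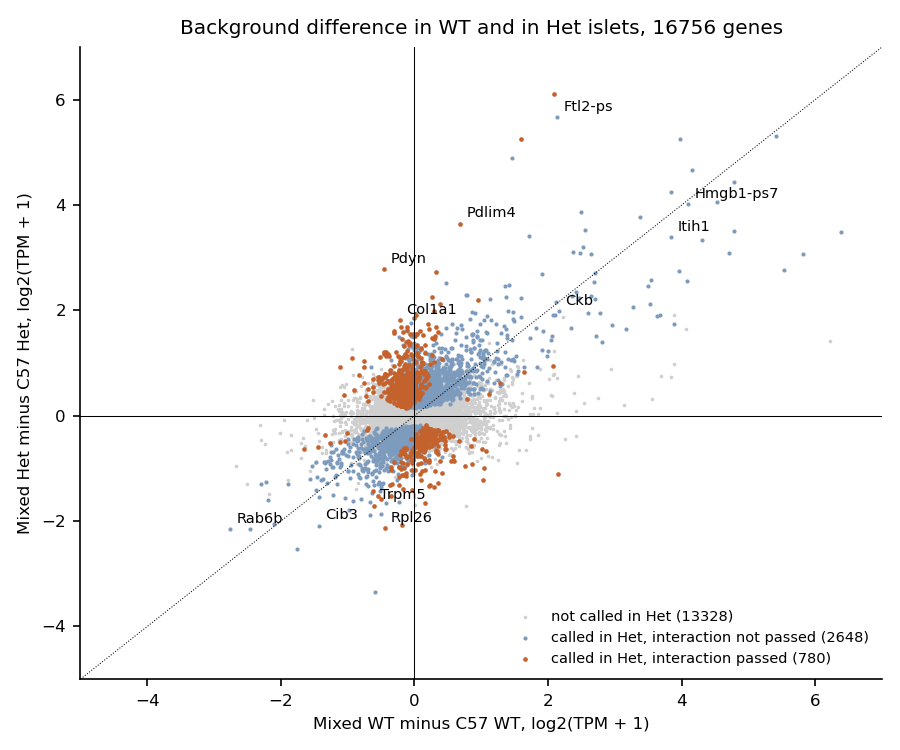
Difference between Mixed and C57 islets in WT (horizontal axis) and in Het mice (vertical axis), in log2(TPM + 1), with 1 point per gene for 16756 genes and a dotted line where both differences are equal. Itih1, Ckb and Rab6b lie near the diagonal, while Pdlim4, Pdyn, Col1a1, Trpm5 and Rpl26 are among the 780 Het calls whose interaction passed.

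Mafa (ENSMUSG00000047591) itself did not pass the test. Its mRNA ran from 93.8 to 152 TPM with a median of 108 in C57 Het, and from 95.2 to 199 TPM with a median of 160 in Mixed Het. The ranges overlapped, with Mixed Het replicate 3 as low as the lowest C57 mice. The difference was 0.36 (SE 0.17, limma adjusted p = 0.157), against 0.43 in WT (adjusted p = 0.153). Without Mixed Het replicate 3 it was 0.48 (adjusted p = 0.0380). TPM of the gene does not tell the 2 alleles apart.

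Insulin mRNA took a smaller share of all TPM in Mixed Het than in C57 Het islets. Ins1 and Ins2 together made up 28.5% to 34.5% of TPM in C57 Het and 21.5% to 30.8% in Mixed Het, or 31.6 ± 2.28% against 27.4 ± 3.35% (SD, n = 6 each; two-sided exact permutation test over all splits of the 12 mice, p = 0.0281, adjusted over 3 shares 0.0422). The groups overlapped, and Mixed Het replicate 1 was lowest at 21.5%. Without that mouse the difference shrank from -4.14 to -2.95 percentage points (exact p = 0.0519), and leaving out C57 Het replicate 1, 3 or 6 also gave exact p-values over 0.05, up to 0.0584. Ins2 alone differed by -0.27 in Het (limma adjusted p = 0.368) and by -0.003 in WT (adjusted p = 0.996). The insulin share was not computed for the WT mice. In whole islets, fewer cells of a type and less RNA per cell cannot be told apart.

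Glucagon mRNA did not differ detectably, at 8.51 ± 1.86% of TPM in C57 Het and 8.52 ± 1.46% in Mixed Het (exact permutation p = 0.972). Transcripts of the mitochondrial genome were lower, at 4.12 ± 0.20% in C57 Het and 3.24 ± 0.45% in Mixed Het (exact permutation p = 0.00866, adjusted 0.0260). Of the Mixed Het mice, 5 lay between 2.80% and 3.35%, below every C57 Het mouse, and replicate 4 lay at 4.06%. Of the 26 mitochondrial genes tested, mt-Nd5, a complex I subunit, was called lower (-0.64, adjusted p = 0.0216, and 0.0551 without Mixed Het replicate 5) and the transfer RNA gene mt-Tc higher (0.93, adjusted p = 0.0499, a call lost on leaving out any of 9 mice), while the median of the 26 was -0.27.

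The genes with the largest higher values in Mixed Het were of mixed function, and several were as high in Mixed WT. Itih1 (ENSMUSG00000006529), which encodes a heavy chain of the inter-alpha-trypsin inhibitor that binds hyaluronan in the matrix, ran from 1.13 to 1.80 TPM in C57 Het (median 1.51) and from 15.8 to 37.3 TPM in Mixed Het (median 26.6). The ranges were far apart, with a difference of 3.38 (SE 0.22, limma adjusted p = 1.38e-09) beside 3.84 in WT. Ckb, the brain-type creatine kinase, ran from 17.7 to 22.95 TPM in C57 Het (median 21.1) and from 46.0 to 129 TPM in Mixed Het (median 90.6), a difference of 1.98 (SE 0.22, adjusted p = 3.88e-06) beside 2.16 in WT. Hcar1, a lactate receptor, differed by 1.81 and Slc39a8, a zinc and manganese importer, by 2.25 (adjusted p = 1.62e-04 and 2.33e-05), and both were also called in WT. Pianp, a neural membrane protein that pairs with the immune receptor PILR alpha, differed by 4.07, the largest value that the naming rule took apart from pseudogenes (SE 0.54, adjusted p = 2.38e-05). Its C57 Het values were 0.90 to 1.39 TPM in 5 mice but 35.0 TPM in replicate 3, next to 36.0 to 114 TPM in Mixed Het. In WT, Pianp differed by 4.53 (adjusted p = 3.58e-05). Eno1b was 0 to 0.142 TPM in C57 Het and 0.195 to 27.9 TPM in Mixed Het, and is uncertain, because it is a near-identical copy of the glycolytic enzyme gene Eno1 (-0.13, adjusted p = 0.488) that could share its reads.

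For Pdyn and Pdlim4 the background difference was larger in Het than in WT. Pdyn (ENSMUSG00000027400), the precursor of the opioid peptide dynorphin, ran from 4.02 to 12.6 TPM in C57 Het (median 6.99) and from 19.01 to 124 TPM in Mixed Het (median 69.7). No values overlapped, and the difference was 2.78 (SE 0.37, limma adjusted p = 2.86e-05). WT islets had means of 60.2 TPM on C57 and 44.9 TPM on Mixed, so the 6 C57 Het mice held the low values of the 4 groups, and the interaction was 3.23 (adjusted p = 0.00268). Pdlim4, an actin-associated PDZ and LIM domain protein, ran from 0.252 to 0.500 TPM in C57 Het and from 8.24 to 21.1 TPM in Mixed Het (difference 3.65, adjusted p = 2.68e-06, interaction 2.96). Mixed WT mice held 0.279 to 11.8 TPM of Pdlim4, so that the highest of them lay within the Mixed Het range. Apobec2, a member of the cytidine deaminase family, differed by 1.99 with an interaction of 1.71, and Apoa1, the main protein of high-density lipoprotein, by 1.69 with an interaction of 1.80 (adjusted p = 8.58e-05 and 5.98e-05 for the Het differences). Slc22a4, an organic cation transporter, and P4ha2, a collagen prolyl hydroxylase, adjoin Pdlim4 in RefSeq's gene order and were higher by 1.68 and 1.44 (adjusted p = 9.09e-06 and 2.54e-07), both named after their values were seen. Slc22a4 reached 4.81 TPM in Mixed WT, within its Mixed Het range of 3.15 to 6.26 TPM, and P4ha2 was also called in WT (0.87).

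Among the genes that were lower in Mixed Het, Rab6b (ENSMUSG00000032549), a small GTPase of Golgi traffic, ran from 16.1 to 26.9 TPM in C57 Het (median 18.7) and from 2.18 to 7.74 TPM in Mixed Het (median 3.87). The difference was -2.15 (SE 0.22, limma adjusted p = 2.25e-06), beside -2.76 in WT. Rpl26, a ribosomal protein gene, ran from 273 to 328 TPM in C57 Het and lay at 48.8 to 59.4 TPM in 5 Mixed Het mice, with replicate 3 at 169 TPM (difference -2.13, adjusted p = 2.25e-06, interaction -1.68). Whether reads of Rpl26 were split with near-identical copies was not tested, so its level is uncertain. Cib3, a calcium-binding protein, fell by 2.08 (adjusted p = 7.47e-07), and Glt1d1, a predicted glycosyltransferase, fell by 1.56 (adjusted p = 8.08e-04). Both were also called lower in WT, at -1.43 and -1.04. Tbc1d1, a Rab GTPase-activating protein of glucose transporter traffic, fell by 1.53 with an interaction of -0.99, T2 fell by 1.58 with an interaction of -1.07, and the antisense transcript Dtnbos, whose reads could belong to its partner gene, fell by 1.52 with an interaction of -1.17. Rsad2 (viperin) and its neighbour Cmpk2, both antiviral genes, were lower by -1.54 and -1.05 (adjusted p = 2.73e-04 and 5.68e-05), and both were also lower in WT.

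Ldah, a lipid droplet hydrolase, was uneven among Mixed Het mice. It was listed at 7.52 to 9.11 TPM in C57 Het, and at 4.91, 0, 4.21, 0.00593, 3.63 and 0 TPM in Mixed Het replicates 1 to 6 (difference -2.06, adjusted p = 0.00328). The groups did not overlap, but 3 Mixed Het mice were at or near 0 and 3 at about the same intermediate level. WT mice showed a like difference, with 5.23 to 7.89 TPM on C57 and 0 to 3.60 TPM on Mixed (-2.11, adjusted p = 0.00929). The plot of levels by mouse shows the same 4 groups for 10 genes.

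**Figure D2:**
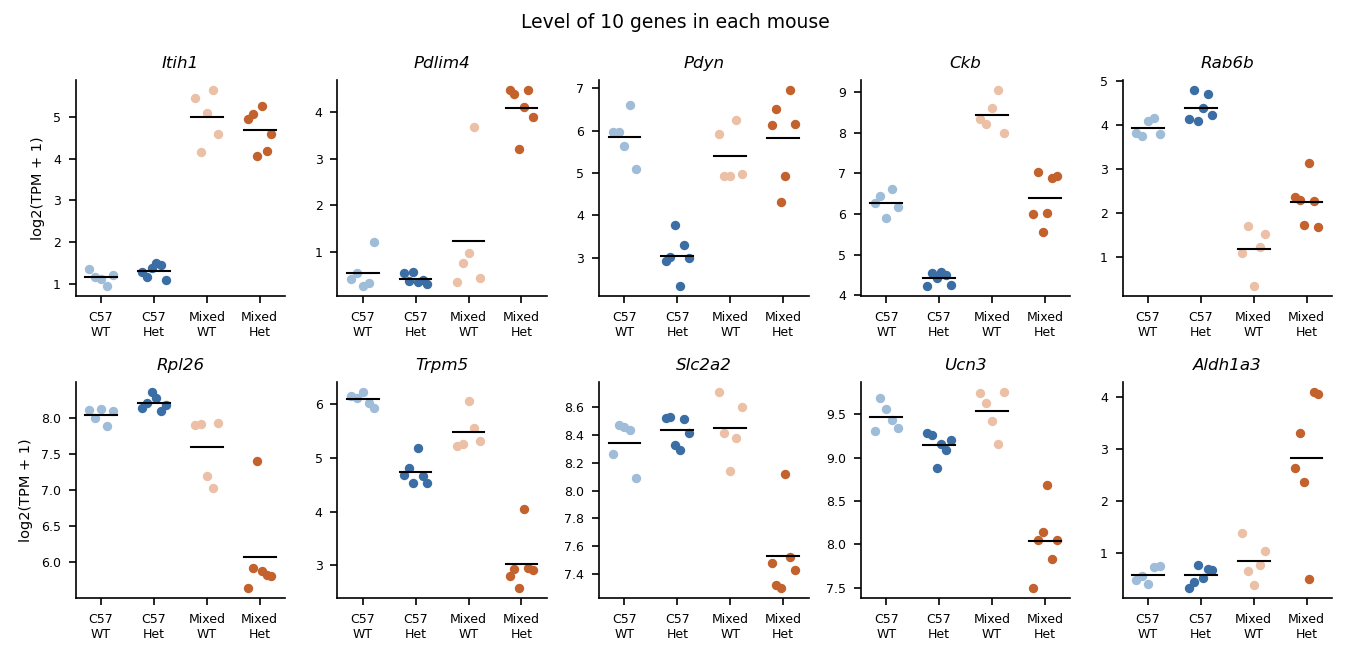
Level of 10 genes, as log2(TPM + 1), in each mouse of the 4 groups (5 WT and 6 Het mice on each background), with a line at the group mean. Itih1, Ckb and Rab6b were shifted between backgrounds in WT and Het alike. Trpm5, Slc2a2, Ucn3 and Aldh1a3 differed between Mixed Het and C57 Het, with 1 Mixed Het mouse, replicate 4, nearest to C57 Het. Trpm5 was also lower in C57 Het than in C57 WT.

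A list of genes of glucose sensing and its amplifiers also held other beta cell genes, such as Ucn3. Of its 21 genes tested, 9 were lower, 1 higher and 11 not called in Mixed Het, beside 7.13% lower and 13.3% higher of all genes. Their median difference was -0.30, against 0.02 over all genes, and 0.07 for the same 21 genes in WT. Trpm5, a calcium-activated cation channel, ran from 22.04 to 35.6 TPM in C57 Het (median 24.5) and from 4.91 to 15.5 TPM in Mixed Het (median 6.54). The ranges did not overlap, and replicate 4 was the highest of the Mixed Het mice, the other 5 lying between 4.91 and 6.70 TPM. The difference was -1.71 (SE 0.19, limma adjusted p = 3.88e-06), and the Het and WT differences differed by -1.10 (adjusted p = 0.0224). In WT the Trpm5 means were 67.5 TPM on C57 and 44.9 TPM on Mixed (-0.61, adjusted p = 0.0579). Both Het means, 26.0 and 7.69 TPM, lay below both WT means. Ucn3, urocortin 3, a marker of mature beta cells in mice that paces somatostatin release, ran from 473 to 624.6 TPM in C57 Het and from 179 to 412 TPM in Mixed Het (difference -1.10, SE 0.14, adjusted p = 2.12e-05, interaction -1.18).

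Slc2a2, the glucose transporter GLUT2 and a known MAFA target, ran from 313 to 368 TPM in C57 Het (median 352) and from 156 to 277 TPM in Mixed Het (median 174). Replicate 4 held the 277 TPM, still below every C57 Het mouse. The difference was -0.91 (SE 0.12, limma adjusted p = 2.06e-05), the interaction was -1.01 (adjusted p = 0.00270), and in WT the 2 backgrounds had means of 326 and 352 TPM. Pcx, pyruvate carboxylase, and Gpd2, the mitochondrial glycerol phosphate dehydrogenase, carry glucose carbon and reducing equivalents into mitochondria, and fell by 0.76 and 0.78. The incretin receptors Glp1r and Gipr fell by 0.77 and 0.62, the granule zinc transporter Slc30a8 by 0.47 and the fatty acid receptor Ffar1 by 0.31 (adjusted p from 2.04e-05 for Pcx to 0.0228 for Ffar1). The Glp1r interaction was -1.35 (adjusted p = 5.12e-04), because its difference in WT was 0.58. Ffar1 lost its call on leaving out C57 Het replicate 1 (-0.28, adjusted p = 0.0554) or Mixed Het replicate 5 (-0.29, adjusted p = 0.0523).

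The potassium channel subunits Abcc8 and Kcnj11 each differed by -0.27, with adjusted p-values of 0.128 and 0.122. Both passed under median-of-ratios scaling, at -0.30 each (adjusted p = 0.0325 for Abcc8 and 0.0316 for Kcnj11), and without Mixed Het replicate 1, at -0.35 and -0.34 (adjusted p = 0.0463 and 0.0452). The 1 higher gene was the adenylyl cyclase Adcy5 (0.50, adjusted p = 0.0327), which lost its call on leaving out any of 5 mice.

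Of 19 islet transcription factors tested, 4 were lower and 0 higher, beside 7.13% and 13.3% of all genes, with a list median of -0.12. Esrrg, a nuclear receptor of beta cell maturation, ran from 3.74 to 5.04 TPM in C57 Het and from 2.39 to 3.43 TPM in Mixed Het (-0.47, adjusted p = 4.28e-04), and Myt1, a zinc finger factor of endocrine cells, differed by -0.40 (adjusted p = 0.0149). Nkx6-1 and Foxo1, regulators of beta cell identity, differed by -0.26 and -0.22 (adjusted p = 0.0327 and 0.0489), and lost their calls on leaving out any of 7 and 9 of the 12 mice. The list held 2 lower calls without C57 Het replicate 1 or 2 or Mixed Het replicate 3, 5 or 6. Of 16 insulin and granule cargo genes, 3 were higher, beside 13.3% of all genes. Vgf, a neuropeptide precursor stored in granules, ran from 35.9 to 59.2 TPM in C57 Het (median 42.6) and from 45.5 to 165 TPM in Mixed Het (median 143; difference 1.39, adjusted p = 4.44e-04). Ptprn, the granule membrane protein IA-2, differed by 0.42 (adjusted p = 0.00576, and 0.0515 under quantile normalization), and the processing chaperone Scg5 by 0.61 (adjusted p = 0.0378), a call lost on leaving out any of 9 mice. Of 16 exocytosis genes, 2 were higher and 3 lower, beside 13.3% and 7.13% of all genes, among them Rab3a and Syt4 at 0.28 and 0.44 and the effectors Rph3al and Cadps at -0.35 and -0.35. The 3 lower calls became 5 to 6 under the other 3 scalings.

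Genes kept low in mature beta cells were examined as 2 lists. Of 13 progenitor and dedifferentiation genes, 5 were higher and 0 lower, beside 13.3% and 7.13% of all genes. Of the list, 8 were not called, and the median of all 13 was 0.40. Aldh1a3, a retinaldehyde dehydrogenase used as a marker of dedifferentiated beta cells, was 0.240 to 0.689 TPM in C57 Het. In Mixed Het replicates 1 to 6 it was 5.20, 8.92, 4.11, 0.412, 16.05 and 15.7 TPM. Replicate 4 therefore lay within the C57 range and the other 5 mice far above it, with a difference of 2.26 (SE 0.39, limma adjusted p = 3.69e-04). The interaction was 1.9998 (adjusted p = 0.0407). Gast, gastrin, differed by 1.29, the ductal and progenitor factor Sox9 by 0.91 and Serpina7, thyroxine-binding globulin, by 0.73 (adjusted p = 0.0146, 0.00221 and 0.00380).

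Of 18 genes of the disallowed set, which beta cells normally silence, 13 were higher and 0 lower, beside 13.3% and 7.13% of all genes. The list median was 0.54 in Het and 0.05 in WT. Acot7, an acyl-CoA thioesterase, ran from 2.90 to 7.62 TPM in C57 Het and from 6.44 to 19.5 TPM in Mixed Het (1.28, adjusted p = 0.00354). Cxcl12, Tgm2, Igfbp4 and Zfp36l1 differed by 1.22, 1.10, 1.09 and 0.94. The 2 best-known members were not called, the lactate dehydrogenase gene Ldha at 0.54 (adjusted p = 0.0982) and the lactate transporter gene Slc16a1 at 0.33 (adjusted p = 0.0959), and without Mixed Het replicate 3 both were, at 0.71 and 0.40 (adjusted p = 0.0173 and 0.0395). The count of 13 fell to 7 without C57 Het replicate 1 or Mixed Het replicate 5, and to 8 without C57 Het replicate 4 or 6 or Mixed Het replicate 1. Fibroblasts and endothelium also express several of these genes, and their markers moved too, as follows.

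Of 22 collagen and matrix genes tested, 21 were higher and 0 lower in Mixed Het, beside 13.3% and 7.13% of all genes. The list median was 1.27 in Het and -0.07 in WT. Of the list, 12 genes passed the interaction test, beside 7.36% of all genes. Col1a1 (ENSMUSG00000001506), a chain of type I collagen, ran from 6.76 to 13.7 TPM in C57 Het (median 10.7) and from 15.1 to 94.8 TPM in Mixed Het (median 35.8). The ranges did not overlap, and the difference was 1.82 (SE 0.36, limma adjusted p = 0.00106). Its interaction was 2.04 (adjusted p = 0.0246). Col6a2, Thbs1 (thrombospondin 1), Postn (periostin) and Dcn (decorin) differed by 1.62, 1.56, 1.55 and 1.60. Col6a3 was the 1 gene not called (0.30, adjusted p = 0.572). The count stayed at 21 on leaving out each mouse in turn, and under a mean TPM of at least 5 fewer genes were tested and 11 were called.

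Markers of other cell types that islet preparations hold were examined beside the matrix genes. The matrix and fibroblast lists share the genes Dcn and Lum, so they are not separate sets. Over all genes, 13.3% were called higher in Het and 7.36% passed the interaction test. Of 11 stellate, pericyte and fibroblast markers, 7 were higher, and their summed level ran from 117 to 150 TPM in C57 Het and from 111 to 352 TPM in Mixed Het. Dpt, dermatopontin of fibroblasts, differed by 1.91 (adjusted p = 4.50e-04). Without Mixed Het replicate 5, 4 of the 11 were called. Of 14 macrophage and myeloid markers, 13 were higher, and their sum ran from 179 to 253 TPM in C57 Het and from 242 to 494 TPM in Mixed Het. Lyz2, macrophage lysozyme, ran from 3.98 to 11.2 TPM in C57 Het and from 12.5 to 41.5 TPM in Mixed Het (1.55, adjusted p = 0.00107), and the complement gene C1qb and the integrin gene Itgax differed by 0.79 and 0.86. In WT the medians of these 2 marker lists were -0.14 and -0.18, and 3 and 10 of their genes passed the interaction test. Of 8 Schwann cell markers 5 were higher, among them Sox10, a transcription factor of the neural crest lineage, by 0.90, with sums of 11.9 to 19.7 and 23.6 to 42.3 TPM. Of 11 endothelial markers 3 were higher, among them Plvap by 0.62 (adjusted p = 0.0211), and without Mixed Het replicate 5, 0 were called by limma (Plvap 0.51, adjusted p = 0.0640). The endothelial count was 1 without C57 Het replicate 1, 3 or 4 or Mixed Het replicate 1 or 6, and 6 without Mixed Het replicate 3. No marker of these 4 lists was at 0 in all 12 mice, and their part in the matrix and disallowed genes was not tested.

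Of 25 secreted factors of the senescence-associated set tested, 19 were higher and 0 lower, beside 13.3% and 7.13% of all genes. The list median was 0.75 in Het and 0.14 in WT. The chemokine gene Ccl11 ran from 0.118 to 1.88 TPM in C57 Het and from 2.02 to 20.3 TPM in Mixed Het, the top value in replicate 5 (1.69, adjusted p = 8.86e-04). Mmp2, Cxcl1, Timp1, Ccl2 and the urokinase receptor gene Plaur differed by 1.61, 1.51, 1.27, 1.26 and 1.06, and without Mixed Het replicate 5 the count of 19 fell to 12. Under a mean TPM of at least 5 fewer genes were tested and 6 were called higher. Fibroblast and macrophage markers were also higher in Mixed Het, and their part in these secreted factors was not tested. Of 19 cell cycle inhibitor and p53 target genes 2 were higher and 1 lower, beside 13.3% and 7.13% of all genes. Aen differed by 0.40 (adjusted p = 0.0171), Cdkn2b by -0.47 (adjusted p = 0.00413) and Cdkn1a, the p21 gene, by 0.35 (adjusted p = 0.0894). Cdkn1a ran from 49.3 to 63.6 TPM in C57 Het and from 65.2 to 80.0 TPM in Mixed Het without overlap, and passed with the 12 Het libraries fitted alone (adjusted p = 0.00383). Without C57 Het replicate 2 or Mixed Het replicate 5, 1 was higher.

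**Figure D3:**
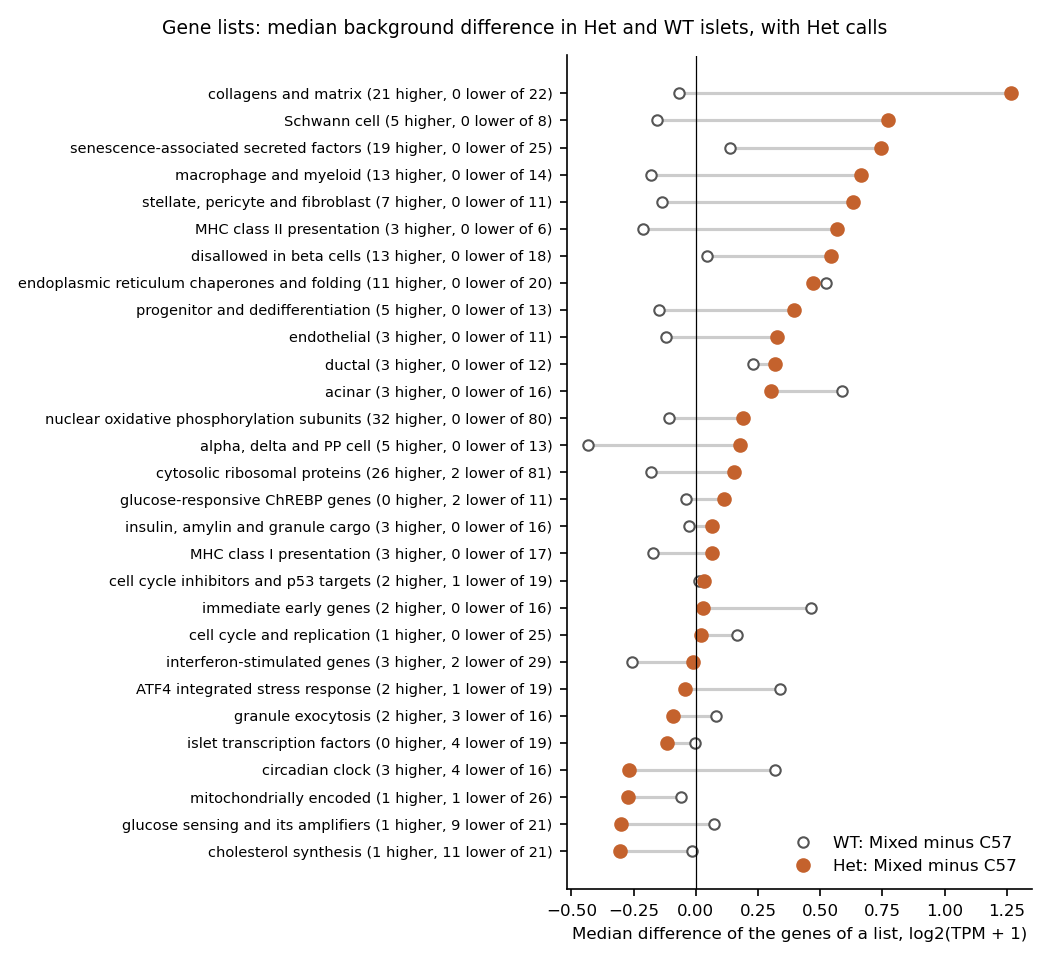
Median difference between Mixed and C57 islets over the tested genes of each list with at least 5 of them, in log2(TPM + 1), in Het (filled) and WT (open), with the number of genes called higher and lower in Het of those tested. Collagens and matrix lie furthest right in Het (1.27) and near 0 in WT (-0.07), endoplasmic reticulum chaperones lie to the right in both (0.47 and 0.52), and cholesterol synthesis and glucose sensing lie furthest left of these lists in Het (-0.30 each).

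The Mixed Het mice were not uniform. The mean level of the matrix list, relative to the C57 Het mean, was 1.55, 0.94, 0.18, 1.01, 2.32 and 1.29 in replicates 1 to 6, against -0.19 to 0.18 in C57 Het. Replicate 5 was highest for matrix, macrophage (1.23), fibroblast (1.69) and progenitor genes (0.91). Replicate 3 was lowest for matrix, level with the highest C57 Het mouse, and for fibroblast markers (-0.09, within the C57 range), while its macrophage level (0.66) and its glucose sensing level (-0.46) were those of the other Mixed Het mice. Replicate 4 had matrix at 1.01 but progenitor genes at -0.05, just under the lowest C57 Het mouse (-0.04), and the mildest glucose sensing level (-0.26). Over all genes tested, the SD between mice was larger in Mixed Het in 61.9%, with a median SD of 0.18 against 0.15 in C57 Het.

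**Figure D4:**
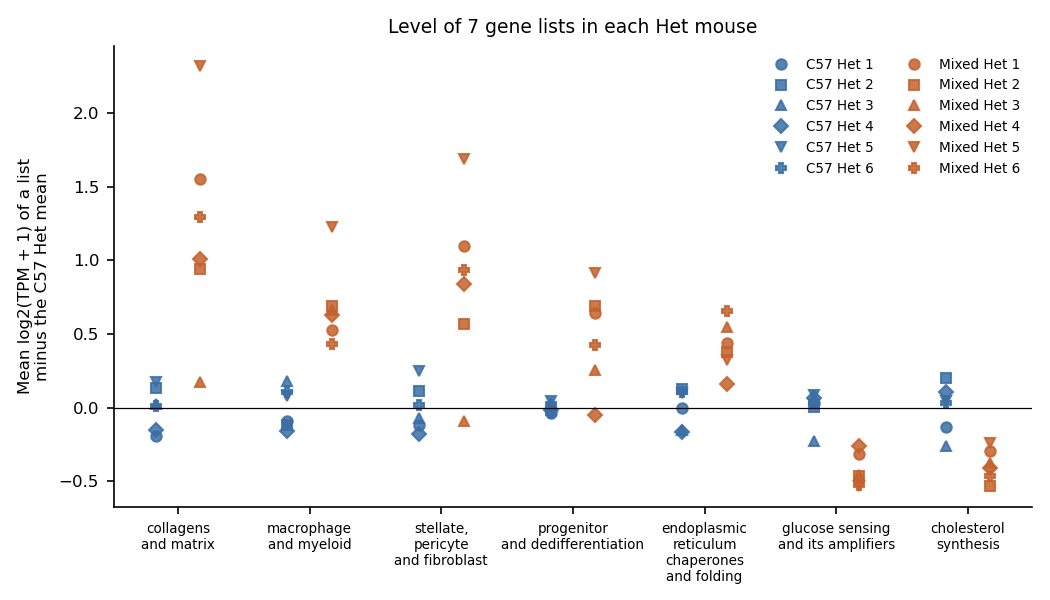
Mean log2(TPM + 1) over the genes of 7 lists in each of the 12 Het mice, minus the C57 Het mean, with colour for background and a symbol for each replicate number, which only names a mouse. Mixed Het mice spread from 0.18 to 2.32 for matrix but lie together between -0.53 and -0.24 for cholesterol synthesis.

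Over all genes, 7.13% were lower and 13.3% higher in Mixed Het. Of 21 cholesterol synthesis and uptake genes tested, 11 were lower, 1 higher and 9 not called in Mixed Het. These genes are switched on together by SREBP2 when sterol in the endoplasmic reticulum is low, and INSIG1, itself a target, holds that factor back. Their median difference was -0.30 in Het and -0.02 in WT, where 0 were called by limma at this threshold. Insig1 ran from 95.8 to 148 TPM in C57 Het (median 112) and from 54.9 to 71.3 TPM in Mixed Het (median 61.2). The groups did not overlap, with a difference of -0.83 (SE 0.15, limma adjusted p = 4.46e-04), and the interaction was -0.82 (adjusted p = 0.0280). The sterol carrier gene Stard4 fell by 0.72. The early enzyme gene Hmgcs1 and the regulator Srebf2 fell by 0.63 and 0.54 (adjusted p = 0.0102 and 0.00138). The 1 higher gene was Pmvk, phosphomevalonate kinase, at 0.33 (adjusted p = 0.00567). Between 10 and 12 genes stayed called lower on leaving out each mouse.

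Of 20 chaperone and folding genes of the endoplasmic reticulum, 11 were higher on the Mixed background in Het and 13 in WT. Over all genes, 13.3% were higher in Het and 6.3% in WT. Chaperones fold newly made secretory proteins and are induced by the unfolded protein response, through ATF6 and XBP1 acting with NF-Y on the ER stress response element (ERSE). The letters of this element, CCAAT and CCACG with 9 bases between them, were found on either strand in the RefSeq promoter windows (250 bases before to 50 after the start site) of 7 of the 17 chaperone genes that have one, and of 0.137% of 27025 genes. They include the CCAAT box, a motif of its own. The 7 genes are Calr, Canx, Creld2, Dnajc3, Hsp90b1, Hspa5 and Pdia6. Hspa5 did not pass in Het, while Pdia4, Dnajb11, Sdf2l1 and Manf were called higher in Het without being among the 7. Whether matches go with the calls was not tested. Stretches upstream of 4 start sites are shown from build GRCm38.p6, 5′ to 3′ on the gene's strand, with the matched letters in capitals. In Creld2 and Calr the match is on the opposite strand.
Creld2, chr15:88819500-88819558 (+): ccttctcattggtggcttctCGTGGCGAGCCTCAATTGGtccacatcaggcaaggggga
Pdia6, chr12:17266471-17266529 (+): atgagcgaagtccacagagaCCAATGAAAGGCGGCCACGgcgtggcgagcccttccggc
Calr, chr8:84847055-84847113 (-): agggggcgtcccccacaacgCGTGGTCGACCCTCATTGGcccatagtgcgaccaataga
Hspa5, chr2:34772005-34772063 (+): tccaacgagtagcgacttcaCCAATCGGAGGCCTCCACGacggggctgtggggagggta
A match is a description of these letters and not a measured binding site. The sterol element letters, TCAC and CCAC with 1 base between them, were in 1 of 13 cholesterol gene windows and 1.44% of all genes, and TGCTGA, the core of the MAF recognition element, in 4 of 16 glucose sensing windows and 21.7% of all genes.

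Of these 20 genes, 0 were lower and 9 were not called in Het, where the median was 0.47. In WT the median was 0.52, and 0 of the 20 passed the interaction test. Creld2 (ENSMUSG00000023272), a disulfide isomerase of the endoplasmic reticulum, ran from 137 to 217 TPM in C57 Het (median 172) and from 241 to 529 TPM in Mixed Het (median 423). No values overlapped, and the difference was 1.21 (SE 0.15, limma adjusted p = 1.25e-05). Pdia4, Dnajb11, Sdf2l1 and Manf, further folding factors of the same compartment, differed by 0.80, 0.75, 0.68 and 0.62, and Pdia6 and Calr (calreticulin) by 0.49 and 0.40 (adjusted p = 0.00436 and 0.00513). Hspa5, the master chaperone BiP, ran from 1108 to 1456 TPM in C57 Het and from 1521 to 2192 TPM in Mixed Het, yet its difference of 0.49 gave an adjusted p of 0.0534. With the 12 Het libraries fitted alone it passed at 0.00367.

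In Het islets the ATF4 arm of the stress response did not move as a group. Of 19 genes tested, 2 were higher and 1 lower in Het, beside 13.3% and 7.13% of all genes. The list median was -0.04 in Het and 0.34 in WT. In WT, 7 of the 19 genes were higher and 0 lower, beside 6.3% and 4.99% of all genes. The interaction passed downward in 4 of the 19, beside 2.74% of all genes. Atf5, a transcription factor of this arm, ran from 149 to 209 TPM in C57 Het and from 73.8 to 142 TPM in Mixed Het (-1.02, limma adjusted p = 4.42e-04), and its interaction was -1.18 (adjusted p = 0.0124). Atf3 ran from 155 to 358 TPM and from 380 to 588 TPM without overlap (0.98, adjusted p = 0.0141), and the serine synthesis gene Psat1 differed by 0.62. Atf3 was also called higher in Mixed WT (1.24, adjusted p = 0.00945). Ddit3, the CHOP gene, was not called in Het (-0.24, adjusted p = 0.565) but was higher by 1.12 in Mixed WT, with an interaction of -1.36 (adjusted p = 0.0340). A like pattern held for Txnip and Arrdc4, arrestin genes induced by glucose through ChREBP. They differed by 0.22 and 0.30 in Het without a call and by -1.30 and -1.51 in WT, with interactions of 1.52 and 1.81 (adjusted p = 0.00290 and 0.00716). Mlxipl, the ChREBP gene itself, fell by 0.65 in Het (adjusted p = 0.00266).

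Sst, somatostatin of delta cells, was higher in Mixed Het. It ran from 9675 to 13482 TPM in C57 Het (median 11044) and from 14191 to 31376 TPM in Mixed Het (median 26882), with the lowest Mixed Het value in replicate 3. The difference was 1.13 (SE 0.19, limma adjusted p = 2.44e-04), which quantile normalization reduced to 0.47 (adjusted p = 0.0898). Hhex, the transcription factor of delta cells, differed by 0.72, and Rbp4 and Gc, carriers of retinol and of vitamin D that delta and alpha cells also make, by 0.71 and 0.59 (adjusted p = 0.00807, 0.00703 and 0.01001). Over the 13 alpha, delta and PP cell markers tested, 5 were higher and 0 lower, beside 13.3% and 7.13% of all genes. The summed level of these markers ran from 105110 to 155006 TPM in C57 Het and from 127873 to 189102 TPM in Mixed Het. Of 16 acinar markers 3 were higher, beside 13.3% of all genes, led by Ctrc (adjusted p = 0.00370), with sums of 401 to 2109 and 869 to 1586 TPM. Of 12 ductal markers 3 were higher, among them Krt18 (0.47) and Sox9, which is also in the progenitor list. Of 14 lymphocyte markers 1 passed the filter on low values, the B cell gene Cd79a, which was lower (-0.72, adjusted p = 0.00628).

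Of 6 class II antigen presentation genes 3 were higher, beside 13.3% of all genes, with a median of 0.57 in Het and -0.21 in WT, including H2-Eb1 and Cd74 (invariant chain) at 0.75 and 0.69, and 5 were higher without Mixed Het replicate 6. H2-Ea, a class II gene that some inbred strains lack, was at 0 in all 12 Het mice. Of 17 class I genes 3 were higher, led by H2-T24 at 0.87, and 1 without Mixed Het replicate 1. Of 29 interferon-stimulated genes 3 were higher (Mx1 0.72, Ifi27 0.49 and Usp18 0.44) and 2 lower (Rsad2, above, and Igtp at -0.99). Over all genes, 13.3% were higher and 7.13% lower. Of 16 immediate early genes 2 were higher (Egr2 1.10 and Ier3 0.81), of 25 cell cycle genes 1 (Rrm2 0.84), though 5 without C57 Het replicate 2 and 3 without Mixed Het replicate 4, and of 16 clock genes 3 were higher and 4 lower. Npas2 and Cry1 were higher by 0.76 and 0.68, and Nr1d2 and Tef differed by -0.74 and -0.57. The 4 lower clock calls became 2 without Mixed Het replicate 2 or 5.

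Ribosomal and respiratory chain genes shifted slightly and depended on the scaling. Over all genes, 13.3% were higher and 7.13% lower in Mixed Het. Of 81 cytosolic ribosomal protein genes 26 were higher and 2 lower, with a median of 0.16, and with Rpl26 and Rpl35a (-0.80) as the lower. Whether reads of these 2 genes were split with near-identical copies was not tested. Median-of-ratios scaling left 8 higher and quantile normalization 6, and the count was 14 to 17 without C57 Het replicate 1 or 5 or Mixed Het replicate 2, 4 or 5. Of 80 nuclear oxidative phosphorylation genes 32 were higher and 0 lower, with a median of 0.19, among them Ndufa1 (0.62) and Atp5g1 (0.60), subunits of complex I and of ATP synthase. Here median-of-ratios scaling left 16 and a total without the most abundant genes 14, and the count was 19 without Mixed Het replicate 2 and 20 without replicate 5. In WT the medians of both lists were below 0, at -0.18 and -0.11.

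Pseudogenes were called higher more often than lower. Of 718 tested, 19.1% were higher and 5.29% lower in Mixed Het, beside 13.3% and 7.13% of all genes, and of the calls of at least 1 log2 82 higher and 12 lower were pseudogenes. Ftl2-ps, a copy of the ferritin light chain gene, was 0.230 to 0.564 TPM in C57 Het and 44.1, 45.5, 101, 65.6, 58.7 and 128 TPM in Mixed Het replicates 1 to 6 (5.67, limma adjusted p = 5.16e-05). In the same mice Ftl1, the parent gene, was 398, 398, 203, 478, 412 and 191 TPM, below the 683 to 903 TPM of C57 Het (-1.29, adjusted p = 1.33e-04). The 2 Mixed Het mice with the most Ftl2-ps, replicates 3 and 6, had the least Ftl1. Hmgb1-ps7 and Rps7-ps3 were higher by 4.01 and 3.88 (adjusted p = 4.72e-10 and 9.44e-06). As reads could be split between near-identical copies, the levels of these genes and of their parents are uncertain.

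Rps2-ps10, named after its values were seen, showed the same in only some mice. It was 1.16 to 2.02 TPM in C57 Het and 426, 2.28, 219, 253, 1.32 and 1.83 TPM in Mixed Het replicates 1 to 6. Rps2 in those mice was 177, 789, 432, 472, 717 and 721 TPM, against 585 to 668 TPM in C57 Het. The 3 mice with high Rps2-ps10 thus held the 3 lowest Rps2 values. The difference for Rps2-ps10 was 3.48 (adjusted p = 0.0196, and 0.0524 without Mixed Het replicate 1 and 0.05003 without replicate 4), and Rps2 was not called (-0.34, adjusted p = 0.410).

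**Figure D5:**
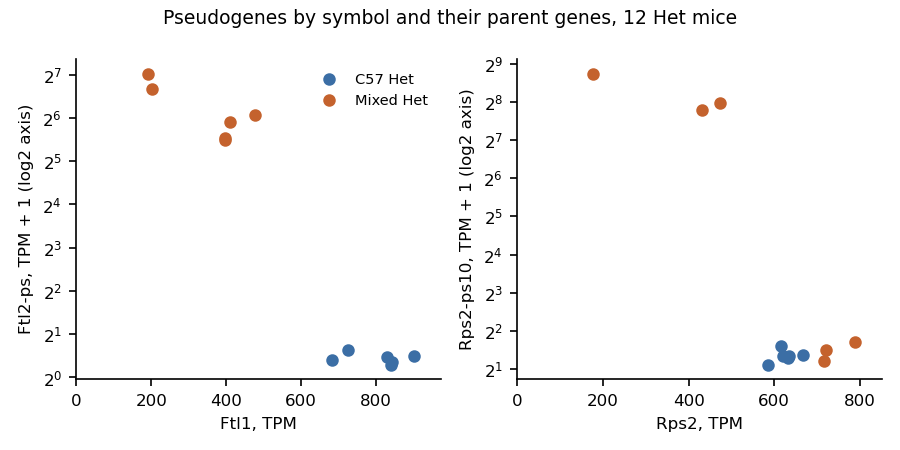
TPM of Ftl1 and Rps2 (horizontal axes, linear) against TPM + 1 of their pseudogenes Ftl2-ps and Rps2-ps10 (vertical axes, log2), with 1 point per Het mouse. All 6 Mixed Het mice have Ftl2-ps at 44.1 TPM or more, and 3 of the 6 have Rps2-ps10 at 219 TPM or more beside Rps2 at 472 TPM or less.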

How the data were processed

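The authors deposited 1 table of TPM per gene, with 57010 Ensembl IDs and 22 sample columns per the file headers, each summing to 1000000. The submitters' processing notes name STAR 2.7.10b, MultiQC 1.7 and build mm39. The counting tool and annotation are not given in the sources used here. Columns were matched to samples by the labels, and 0 were left unused. The filter kept genes at 1 TPM or more in 5 or more of the 22 samples. limma 3.58.1 (R 4.3.3, eBayes with trend) fitted 4 group means to log2(TPM + 1), where changes of low genes come out too small, and p-values were Benjamini-Hochberg adjusted over all 16756 genes. Shares were tested by exact two-sided permutation. In simulated data of 16756 genes with independent normal noise, 200 genes were shifted by 1 log2 in Mixed Het. Of these 200, 93.5% were recovered, and 4.10% of calls were false. The measured Het calls had a median size of 0.47, and genes of the same mice are not independent. These rates therefore do not describe the measured calls. Each library is 1 mouse, and replicate numbers only name mice.

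The groups, gene lists and naming rule were chosen with earlier results of these data known. The rule took Mafa, the 10 largest calls each way and the 5 largest each way that passed the interaction (groups not overlapping, mean TPM of at least 5 in 1 group, no provisional genes), 3 pseudogenes each way, and up to 5 genes per list, with more where needed to describe it. No pseudogene that was lower met it. Some genes of the lists are counted but not reported here by name. The alternatives were a pseudocount of 0.1, no filter, a mean TPM of at least 5, 3 other scalings, eBayes without trend, arrayWeights, an acinar covariate, the 12 Het libraries alone, stricter thresholds and leaving out each Het mouse. RefSeq promoters and gene order are those of GRCm38.p6, not the build of the table, and gave no gene coordinates.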

Additional observations from a re-analysis of the deposited data

Results flagged for a closer look

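Background differences that differed between Het and WT by the interaction test (limma adjusted p under 0.05) were found for 45 named genes. Values are the difference in Het minus that in WT, in log2(TPM + 1). For matrix, secreted, immune and stromal genes they were C1qb 1.23, Ccl11 1.90, Cd74 0.86, Col1a1 2.04, Col6a2 1.73, Dpt 1.88, H2-Eb1 0.78, Ifi27 0.66, Itgax 1.10, Mmp2 1.54, Plaur 1.06, Postn 1.58, Sox10 1.06 and Timp1 1.18. For genes of glucose sensing, sterol, stress and ChREBP they were Arrdc4 1.81, Atf5 -1.18, Ddit3 -1.36, Glp1r -1.35, Insig1 -0.82, Pcx -0.83, Slc2a2 -1.01, Slc30a8 -0.79, Srebf2 -0.62, Trpm5 -1.10, Txnip 1.52 and Ucn3 -1.18. For the remaining genes they were Aldh1a3 1.9998, Apoa1 1.80, Apobec2 1.71, Atp5g1 0.51, Dtnbos -1.17, Egr2 1.01, Eno1 0.66, Gc 0.88, Igtp -0.83, Ndufa1 0.65, Nr1d2 -1.08, Pdlim4 2.96, Pdyn 3.23, Rbp4 0.998, Rpl26 -1.68, Serpina7 1.20, Slc22a4 1.35, T2 -1.07 and Tbc1d1 -0.99.

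Single mice stood apart from the other 5 of their group in 18 of 268 gene and share values examined (6.72%), by Dixon's test of the gap to the nearest mouse at its 95% critical value. For 1 group alone chance gives about 1 in 20, and genes of the same mice are not independent. Mixed Het replicate 4 stood high for Trpm5 (15.5 TPM), Slc2a2 (277 TPM), Cib3 (4.83 TPM) and Rpl35a (73.3 TPM), and low for Serpina7 (6.89 TPM). Replicate 3 stood high for Rpl26 (169 TPM) and Igtp (18.4 TPM), and low for Sst (14191 TPM) and Hhex (10.9 TPM). Replicate 2 stood low for Eno1b (0.195 TPM) and Nr1d2 (20.4 TPM), replicate 1 high for Foxo1 (21.9 TPM) and replicate 5 high for Ccl11 (20.3 TPM). In C57 Het, replicate 3 stood high for Pianp (35.0 TPM) and Slc22a4 (1.12 TPM) and low for Glp1r (108 TPM) and Slc30a8 (1028 TPM), and replicate 4 high for Myt1 (50.5 TPM).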

How the results depend on the processing

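No paired analysis was possible because replicate numbers here only name mice and pair none. Of 117 named genes that were called (mt-Tc aside), 0 changed sign. In every alternative fit that tested them, 107 stayed called at an adjusted p under 0.05. Of the 117, 8 lost the call on leaving out 1 mouse. The stricter p and the fold requirement were applied to the total counts of calls and not to these named genes. For the 3428 Het calls, arrayWeights gave 6572 (3501 higher, 3071 lower), a mean TPM of at least 5 gave 2223 (1366 higher; fewer genes tested), an adjusted p under 0.01 gave 1761 and a log2 difference of at least 1 gave 399. Lower Het calls were 1868, 2041 and 1992 under median-of-ratios scaling, quantile normalization and the total without abundant genes. Leaving out each mouse gave 2556 to 3583 Het calls (1690 to 2510 higher, 866 to 1306 lower), 1713 to 1945 WT calls, 771 to 1604 interaction calls (771 without Mixed Het replicate 5) and 501 to 620 calls shared with WT. WT calls were 1251, 811 and 383 under the mean TPM filter, the stricter p and the fold requirement. Interaction calls were 2628 with arrayWeights, 714 with no filter, 245 under the stricter p and 282 with the fold requirement. Calls shared with WT were 939 with arrayWeights and 362 under the mean TPM filter. Where no reason is given, the cause was not tested. The insulin share difference ran from -4.82 to -2.95 percentage points on leaving out each mouse, the mitochondrial one from -1.04 to -0.79 and the glucagon one from -0.37 to 0.50. The glucagon difference was -0.0706 over nuclear genes and -0.69 over genes other than insulin. Without read counts, depth and its limit on low genes are unknown.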

Other observations

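Some genes with large background differences adjoined each other on the chromosome. By RefSeq's gene order, which placed 14843 of the tested genes, 26 of the 265 placed genes that were higher by at least 1 log2 (9.81%) had a direct neighbour that was too, beside 3.48% of all placed genes with such a neighbour. For genes lower by at least 1 log2 it was 12 of 88 (13.6%), beside 1.18%. Among these neighbours were Slc22a4, Pdlim4 and P4ha2 in a row, Dcn and Lum, Ccl2 and Ccl11, and Col6a2 and Col6a1 on the higher side, and Rsad2 and Cmpk2 and the flavin monooxygenase genes Fmo4 and Fmo1 on the lower side. Neighbours can share reads or regulation, and this is a description with no test.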
